A study of Mus musculus with 3 samples.

Results

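The genes that start blood clotting, hold it in check, dissolve clots and control platelets were examined in kidney endothelium of mouse embryos of day 15.5. The cells were sorted as GFP-positive cells from dissociated kidneys of Tie2-GFP transgenic mice (Tg(TIE2GFP)287Sato, CD-1 strain), in which GFP is driven by the Tie2 promoter, that of the angiopoietin receptor gene Tek. Some blood cells are known to use this promoter as well. All 3 arrays carry the same transgene, strain and stage, and each measured 1 pool of 4 to 5 kidneys, with no treatment and no second group. The members were 40 genes of haemostasis chosen by name, each taken from the probe sets whose platform annotation gives that symbol alone. Of these, 37 genes were measured, on 38 probe sets, among 19938 named genes in all, and Serpine2, F2rl1 and Ptgs1 had no probe set of a single symbol and were not analysed here. The members fall into anticoagulant genes (9 measured), procoagulant factors (14), thrombin and protease receptors (3), fibrinolytic genes (7) and genes of prostanoid and nucleotide control (4). Gas6, a relative of protein S, was placed in the anticoagulant group, and whether it acts as an anticoagulant was not examined.

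Clotting proceeds when tissue factor, exposed outside the vessel, binds factor VIIa and sets off a chain of proteases that ends in thrombin, which cuts fibrinogen into fibrin. Most of these proteases and fibrinogen itself are made by hepatocytes and circulate in plasma, whereas endothelium supplies the surface on which the chain is stopped: thrombomodulin and the endothelial protein C receptor turn thrombin into an activator of protein C, TFPI blocks the tissue factor complex, and plasminogen activators start the removal of fibrin. Endothelium also restrains platelets with prostacyclin and by breaking down ADP, and it stores von Willebrand factor, which ties platelets to the vessel wall.

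Each value is the deposited log2 value of a probe set. The level used below is a raw value of 100, or 6.64 log2, which the study applied as its low-signal filter. In its own processing the study asked for that level in at least 3 samples. The calls here test a mean of deposited values and are not the outcome of that filter. A gene was called above or below that level when its mean over the arrays differed from it in limma's moderated test (one-sided, Benjamini-Hochberg adjusted p under 0.05 over all probe sets). Tek itself was at 11.12, 10.97 and 10.13 log2 in arrays 1, 2 and 3, above the level. Of 14 pan-endothelial markers 12 passed as above and 0 as below, with Pecam1 at 10.09 ± 0.60 log2 and Cdh5 at 11.08 ± 0.59 (SD, n = 3), Kdr and Tie1 also above, and Eng and Esam not passing. Array 3 stood apart from the other arrays. Its correlation with them across probe sets was 0.923 and 0.927, against 0.976 between arrays 1 and 2 (probe sets are not independent replicates), its values were less spread (SD 1.84 log2, against 2.08 and 2.06), and all 14 pan-endothelial genes were lower in it as deposited, Cldn5 being higher in it after quantile normalization. Many probe sets hold the same value in several arrays, and 12 of the 37 members (32.4%) had a single value in all 3 arrays, against 25.6% of all genes. The test gives such members very small p-values. Calls made with 1 spread pooled over all probe sets (0.491 log2) are therefore given beside the members wherever they differ, and as counts for the lists. With it all 14 pan-endothelial markers were above. Whether the pools came from separate litters is not given in the labels, so p-values measure the spread between these arrays only.

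Of the 37 measured members, 14 lay above the level (37.8%) and 19 below (51.4%), while 4 passed neither way. Among all 19938 genes, 41.6% were above and 41.6% below, so the share of members above was near that of the table and the share below was somewhat larger. Their median was 6.45 log2, and the median over all genes was 6.67. The roles differed in their counts. Of the anticoagulant group, Gas6 included, 5 of 9 were above the level and 3 below. Of 7 fibrinolytic genes 4 were above and 1 below, and of 4 genes of prostanoid and nucleotide control 2 and 2. Of 3 thrombin and protease receptors 1 was above and 2 below. Of procoagulant factors, 2 of 14 were above and 11 below. With the pooled spread the counts above and below were 5 and 1 for the anticoagulant group and 1 and 10 for procoagulant factors. They were 5 and 1 for fibrinolytic genes, 1 and 1 for receptors, and 1 and 1 for prostanoid and nucleotide genes. These counts describe small groups, and the difference between roles was not tested. With the pooled spread 13 members were above and 14 below (36% and 32.5% of all genes), and in 16 and 20 members all arrays lay over or under the level (47.9% and 45.3% of all genes). Without array 3 the counts were again 14 and 19 (40.3% and 45.6% of all genes), with Serpinf2 and F10 called in place of Anxa2 and F2rl3. Without array 1 the counts were 9 above and 11 below, and without array 2 they were 9 and 12. The calls of Pros1, Plat, Plau, Anxa2 and Entpd1 as above, and of Proc, Tfpi2, F2, F9, Fgg, F2rl2 and Plg as below, were lost in both of those settings, and that of F2rl3 without array 1.

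**Figure D1:**
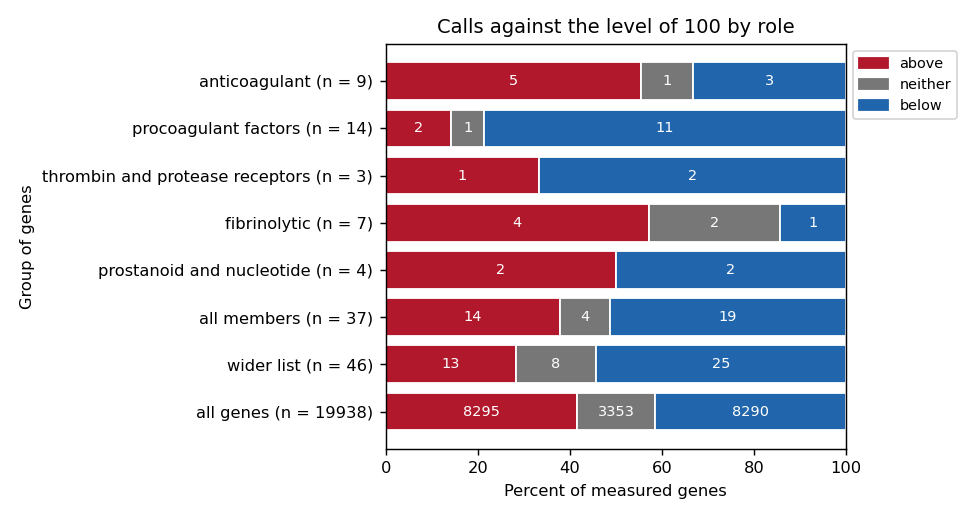
Percent of measured genes (x axis) called above the level of 100 (red), below it (blue) or neither (grey), for each role, all members, the wider list of haemostasis genes and all genes (y axis), with the number of genes written in each bar. Procoagulant factors have 11 of 14 genes below the level and 2 above, and the anticoagulant group, Gas6 included, has 5 of 9 above it and 3 below.

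The protein C pathway was represented at its receptors but not at protein C. Procr, which encodes the endothelial protein C receptor, measured 8.55 log2 in every array (8.55 ± 0.00, SD, n = 3, adjusted p = 1.33e-05). Its value was 1.91 log2 above the level, or 3.75 times it. Thbd, encoding thrombomodulin, the thrombin receptor that makes thrombin an activator of protein C, was at 8.06, 7.93 and 7.93 log2 in arrays 1, 2 and 3 (7.97 ± 0.07, adjusted p = 0.000959). Both stood above the level in each array. The deposited value of Procr was tied in all arrays and that of Thbd in arrays 2 and 3, so their ranges cannot be read as constancy. After quantile normalization Procr was 0.40 log2 and Thbd 0.25 log2 higher in array 3 than in the mean of the others. Pros1, which encodes protein S, the cofactor of activated protein C, was at 7.77, 7.74 and 7.30 log2 (7.61 ± 0.26, adjusted p = 0.0199). It was above the level in each array and lowest in array 3. Proc, the zymogen that these proteins serve and a product of hepatocytes, was at 5.51, 5.51 and 5.94 log2 (5.65 ± 0.25) and below the level (adjusted p = 0.0147).

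Of the other genes placed in the anticoagulant group, Tfpi and Gas6 were above the level. Tfpi, the inhibitor of the tissue factor complex, was at 9.27, 9.27 and 9.22 log2 (9.26 ± 0.03, SD, n = 3, adjusted p = 5.46e-05), 6.12 times the level. Its relative Tfpi2, an inhibitor found mainly in extracellular matrix, was at 6.60 log2 in all arrays, 0.05 log2 under the level, the member nearest to it. The call of Tfpi2 as below (adjusted p = 0.00615) was lost with the pooled spread, after quantile normalization and with arrays centred on 1 median. Gas6, a ligand of the TAM receptors related to protein S, was at 8.18, 8.18 and 7.94 log2 (8.10 ± 0.14, adjusted p = 0.00253). Serpinc1, antithrombin, was at 6.10, 6.15 and 6.15 log2 and below the level (adjusted p = 0.000921), though not with the pooled spread. Serpind1, heparin cofactor II, was the member of the group that varied most, with 6.58 log2 in array 1, 7.02 in array 2 and 7.96 in array 3. It did not pass (adjusted p = 0.303). Array 1 lay under the level and the others over it.

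Promoters of 29 measured members were found in the RefSeq promoter table (34 promoters, GRCm38.p6), each running 250 bases before the start site and 50 after it. The following are shown for a receptor and an inhibitor that were above the level, so that they can be set beside those of fibrinogen genes given further on. Capitals mark 3 short motifs searched on both strands, TTCCTG (an ETS-type motif), CCACCC (a KLF-type motif) and GTTAAT (part of the HNF1 motif).
Procr, chr2:155750967-155751266, + strand: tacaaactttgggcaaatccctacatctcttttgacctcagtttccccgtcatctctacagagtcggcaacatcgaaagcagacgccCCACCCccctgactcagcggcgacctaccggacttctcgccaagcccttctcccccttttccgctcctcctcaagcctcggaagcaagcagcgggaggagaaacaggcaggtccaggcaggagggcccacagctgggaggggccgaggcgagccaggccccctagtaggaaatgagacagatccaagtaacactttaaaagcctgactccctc
Tfpi, chr2:84474125-84474424, - strand: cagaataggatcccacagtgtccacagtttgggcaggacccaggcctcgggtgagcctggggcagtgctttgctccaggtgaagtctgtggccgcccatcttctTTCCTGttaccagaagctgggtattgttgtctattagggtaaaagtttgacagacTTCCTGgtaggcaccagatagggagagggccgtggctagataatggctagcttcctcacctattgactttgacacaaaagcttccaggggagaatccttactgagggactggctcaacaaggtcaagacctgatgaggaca
The window of Procr held 1 CCACCC match and the window of Tfpi held 2 TTCCTG matches. A second window of Tfpi, at chr2:84476710-84477009, held 1 further TTCCTG match.

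**Figure D2:**
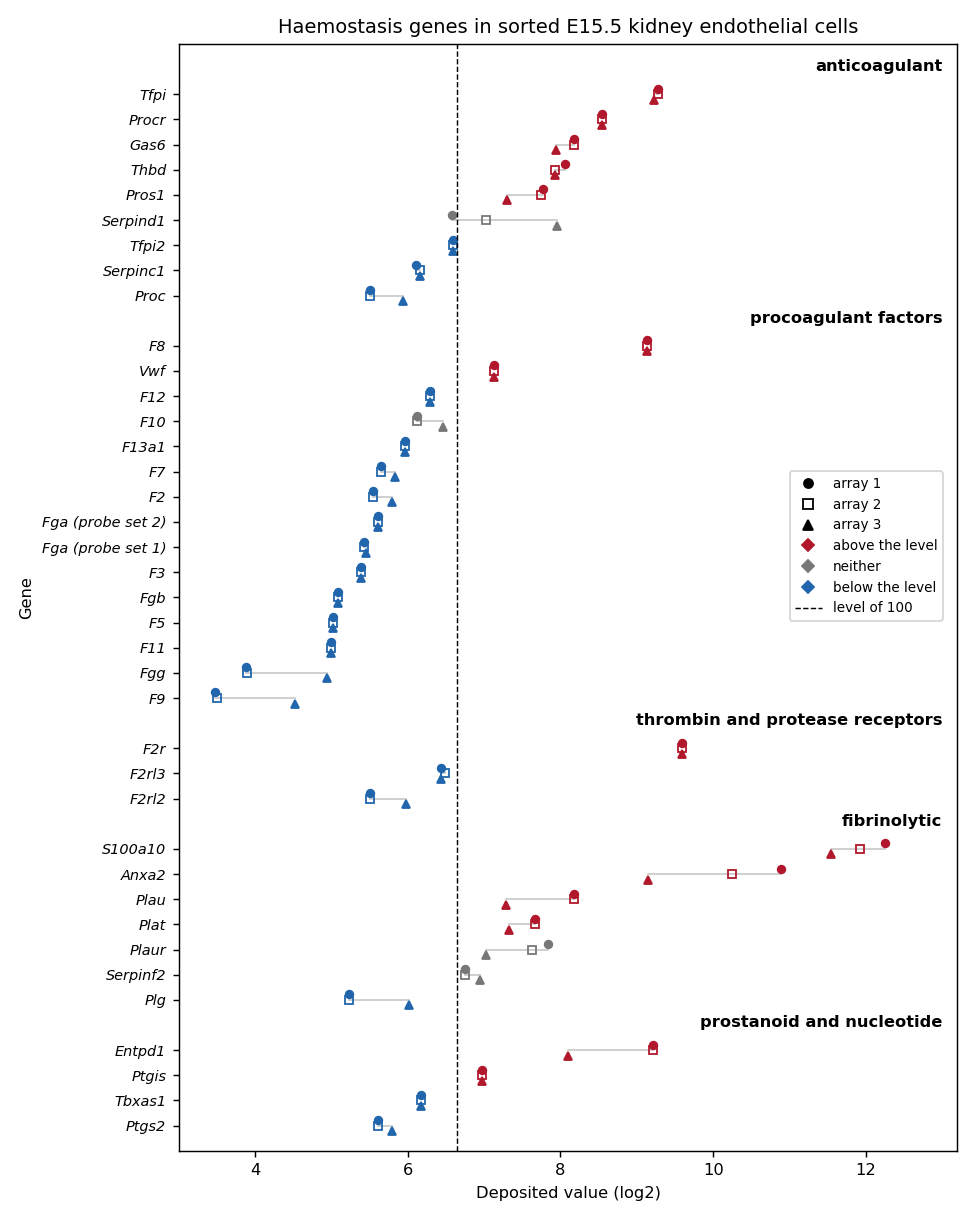
Deposited log2 value (x axis) of each measured member (y axis, grouped by role and ordered by mean) in array 1 (filled circle), array 2 (open square) and array 3 (triangle). Colours give the call against the level of 100, drawn as a dashed line at 6.64 log2, and Fga has 2 probe sets. The points of Procr, F8 and F2r fall together, while those of Anxa2 span 9.15 to 10.89.

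The procoagulant factors above the level were F8 and Vwf, both known products of endothelium, and the 11 below it include the main clotting proteins of liver. F8, the cofactor factor VIII, which in the mouse is made largely by endothelial cells, measured 9.13 log2 in every array (9.13 ± 0.00, SD, n = 3, adjusted p = 1e-05), 5.61 times the level. Vwf, encoding von Willebrand factor, the carrier of factor VIII in plasma, was at 7.13 log2 in every array, 1.40 times the level. Its call as above (adjusted p = 7.72e-05) was lost with the pooled spread, so that this widely used endothelial marker stood near the level in these cells. Both genes were tied across arrays in the deposited values, as were 25.6% of all genes. After quantile normalization F8 was 0.42 log2 and Vwf 0.12 log2 higher in array 3 than in the mean of the others.

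The remaining 12 factors had no call above the level. F3, tissue factor, which starts the chain, was at 5.39 log2 in every array (adjusted p = 1.63e-05), 0.420 times the level. F5, the cofactor of factor Xa, was at 5.02 log2 in every array, and F11, a protease of the intrinsic pathway, at 5.00 log2. F2, prothrombin, was at 5.55, 5.55 and 5.79 log2 (5.63 ± 0.14, adjusted p = 0.00496), and F7, the partner of tissue factor, at 5.65, 5.65 and 5.83 log2 (adjusted p = 0.00349). F9, the protease that works with factor VIII, was at 3.48, 3.51 and 4.53 log2 (3.84 ± 0.60, adjusted p = 0.0108). F12, which starts contact activation, was at 6.29 log2 in every array and below the level, but not with the pooled spread. F10, the protease at which both branches meet, was at 6.12, 6.12 and 6.47 log2 and did not pass (adjusted p = 0.0526), although all 3 arrays lay under the level. It passed without array 3. F13a1, the fibrin crosslinking enzyme subunit found in platelets and macrophages, was at 5.97 log2 in every array and below the level (adjusted p = 3.51e-05).

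The 3 chains of fibrinogen lie side by side on chromosome 3 and were all below the level. Fga, the alpha chain, had 2 probe sets, with means of 5.43 ± 0.02 and 5.62 ± 0.00 log2 (SD, n = 3, adjusted p = 7.88e-05 and 1.99e-05). Fgb, the beta chain, was at 5.09 log2 in every array (adjusted p = 1.41e-05). Fgg, the gamma chain, was at 3.88, 3.90 and 4.94 log2 (4.24 ± 0.61, adjusted p = 0.0149), higher in array 3 but still under the level there. Of 10 measured hepatocyte markers, 7 were below the level, among them Alb (5.60 ± 0.26), Afp (5.45 ± 0.07) and Ttr (5.84 ± 0.00), and Apoa1 (6.72 ± 0.00) and Trf (8.04 ± 0.30) were above it, Apoa1 not with the pooled spread (1 of 10 above and 5 below with it). The hepatocyte list summed to raw levels of 800 to 963 over the arrays. The promoters of Fga and Fgb are shown because each held a GTTAAT match, 43 and 29 bases before the start site, with capitals as above.
Fga, chr3:83025903-83026202, + strand: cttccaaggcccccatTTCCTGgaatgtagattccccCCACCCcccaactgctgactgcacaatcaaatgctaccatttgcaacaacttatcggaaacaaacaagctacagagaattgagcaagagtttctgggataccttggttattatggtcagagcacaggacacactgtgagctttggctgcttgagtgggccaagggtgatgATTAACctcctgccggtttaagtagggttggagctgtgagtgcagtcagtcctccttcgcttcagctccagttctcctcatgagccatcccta
Fgb, chr3:83049814-83050113, - strand: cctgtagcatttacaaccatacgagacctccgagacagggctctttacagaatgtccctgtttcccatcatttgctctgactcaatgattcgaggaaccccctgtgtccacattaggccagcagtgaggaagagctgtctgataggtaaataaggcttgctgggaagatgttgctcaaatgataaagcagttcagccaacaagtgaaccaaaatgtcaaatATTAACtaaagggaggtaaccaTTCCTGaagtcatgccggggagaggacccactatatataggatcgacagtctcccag
Of promoters of members below the level, 5 of 20 held GTTAAT (25.0%), against 0 of 10 promoters of members above it and 7.10% of 32851 promoters in the table. The 5 were those of F2, Fga and Fgb and of 2 overlapping windows of Tfpi2, which share a match. For TTCCTG the shares were 3 of 10 above and 7 of 20 below (30.0% and 35.0%, against 30.6% of all promoters), and for CCACCC 5 of 10 and 10 of 20 (50% for each, against 31.5%). A promoter was counted once however many matches it held, and a match describes letters only.

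Of the receptors through which thrombin and related proteases act on cells, a single one was above the level. F2r, encoding PAR1, the main thrombin receptor of endothelium, measured 9.59 log2 in every array (9.59 ± 0.00, SD, n = 3, adjusted p = 8.48e-06), 7.69 times the level. F2rl2, encoding PAR3, which on mouse platelets assists PAR4, was at 5.51, 5.51 and 5.98 log2 and below the level (adjusted p = 0.0179). F2rl3, encoding PAR4, the receptor through which thrombin activates mouse platelets, was at 6.44, 6.49 and 6.44 log2, 0.19 log2 under the level (adjusted p = 0.00644, lost with the pooled spread and without array 3). Each receptor kept its side of the level in all 3 arrays.

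Of the fibrinolytic genes, those above the level were both plasminogen activators and both partners of the annexin complex. S100a10 (p11) and Anxa2 (annexin A2) encode the partners of a complex that binds tissue plasminogen activator and plasminogen. S100a10 was at 12.25, 11.93 and 11.55 log2 in arrays 1, 2 and 3 (11.91 ± 0.35, SD, n = 3, adjusted p = 0.0013), 38.5 times the level. Anxa2 was at 10.89, 10.25 and 9.15 log2 (10.10 ± 0.88, adjusted p = 0.0172), 10.9 times the level, and did not pass without array 1, array 2 or array 3. Both partners were highest in array 1 and lowest in array 3. Plat, tissue plasminogen activator, was at 7.66, 7.66 and 7.33 log2 (7.55 ± 0.19, adjusted p = 0.012). Plau, urokinase, was at 8.18, 8.18 and 7.29 log2 (7.88 ± 0.52, adjusted p = 0.0448). Both activators stood above the level in each array and were lowest in array 3. Plaur, the urokinase receptor, was at 7.84, 7.63 and 7.02 log2, over the level in each array, but did not pass (adjusted p = 0.0621). It passed with the pooled spread, as well as after quantile normalization and with arrays centred on 1 median. Plg, plasminogen, the zymogen that the activators cut and a liver product, was at 5.24, 5.24 and 6.02 log2 and below the level (adjusted p = 0.0347). Serpinf2, the plasmin inhibitor antiplasmin, was at 6.74, 6.74 and 6.94 log2 and did not pass (adjusted p = 0.112, passing without array 3).

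Of the genes that restrain or stimulate platelets through small molecules, Entpd1 and Ptgis were above the level. Entpd1 encodes CD39, which breaks down ATP and ADP at the endothelial surface, and was at 9.21, 9.21 and 8.09 log2 (8.84 ± 0.64, SD, n = 3, adjusted p = 0.0226), 4.57 times the level and lowest in array 3. Ptgis, prostacyclin synthase, was at 6.97, 6.97 and 6.98 log2, 1.26 times the level (adjusted p = 0.000214, lost with the pooled spread). Tbxas1, thromboxane synthase, an enzyme of platelets and macrophages, was at 6.17 log2 in every array and below the level, again not with the pooled spread. Ptgs2, the inducible cyclooxygenase, was at 5.61, 5.61 and 5.79 log2 (adjusted p = 0.00328, below). Nearest to the level on its upper side among the members that passed was Ptgis, and on its lower side Tfpi2.

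By their median the members did not shift in array 3, although their summed raw level was 12666, 10999 and 9025 in arrays 1, 2 and 3. All genes summed to 5635242, 5387380 and 4673130. The median difference of array 3 from the mean of arrays 1 and 2 was 0.00 log2 over the 37 members and 0.00 over all genes. In array 3, 11 members were lower, 12 equal and 14 higher. Of all 19938 genes, 6617 were lower, 5114 equal and 8207 higher. No test was possible, since array 3 is a single sample of the same group. Of the 14 members above the level, 9 were lower in array 3, 4 were equal and 1 was higher. Of all 8295 genes above the level, 4687 were lower, 2172 equal and 1436 higher. The median difference of these 14 members was -0.15 log2, against -0.05 over all genes above the level. The largest falls were those of Anxa2 (-1.42 log2), Entpd1 (-1.11), Plau (-0.90), S100a10 (-0.54) and Pros1 (-0.46), and Plaur, which was not called, differed by -0.71. The pan-endothelial genes had a median difference of -1.0 log2. In contrast, Procr, F8, F2r and Vwf were equal in all arrays as deposited, and Tfpi and Thbd differed by -0.05 and -0.06 log2. After quantile normalization Anxa2 (-1.06 log2), Entpd1 (-0.73), Plau (-0.68), S100a10 (-0.29) and Pros1 (-0.26) were still lower in array 3, as were the pan-endothelial genes by their median (-0.66), while F8, Procr, F2r, Tfpi and Thbd were higher in it (0.42, 0.40, 0.38, 0.36 and 0.25 log2). Plat was lower in array 3 under either scaling (-0.33 and -0.15 log2), and Gas6 changed sign between them (-0.24 as deposited, 0.09 after quantile normalization).

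**Figure D3:**
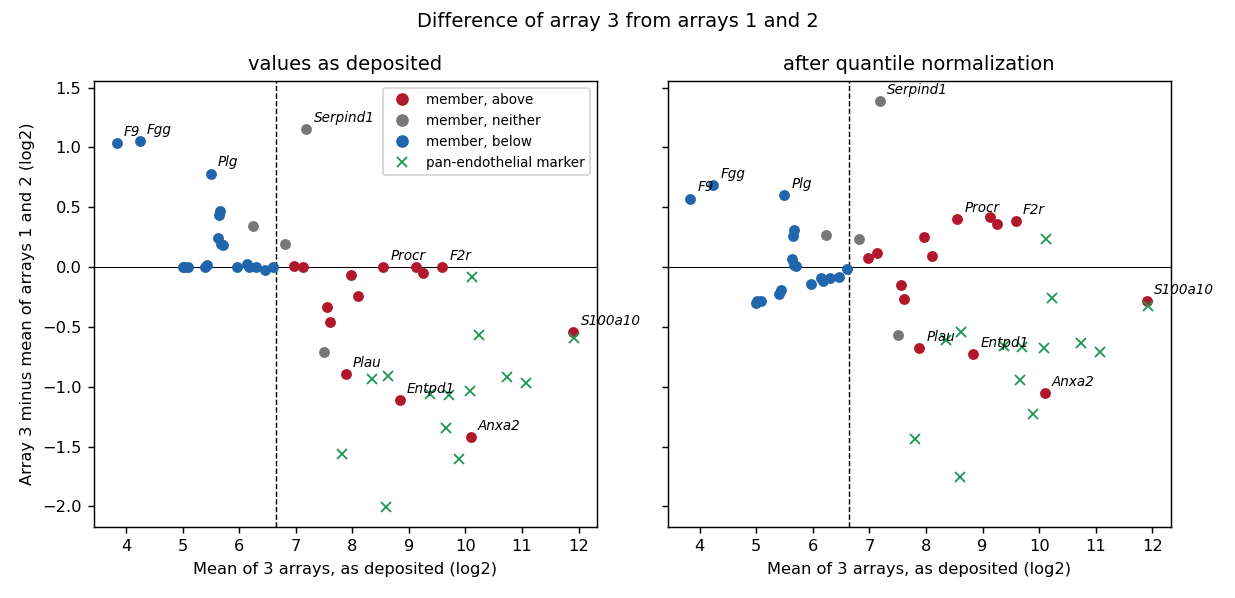
Array 3 minus the mean of arrays 1 and 2 (y axis, log2) against the mean of the 3 arrays (x axis, log2) for members (circles, coloured by call) and pan-endothelial markers (green crosses), from values as deposited and after quantile normalization, with the level of 100 as a dashed line. Anxa2, Entpd1 and Plau lie at -1.42, -1.11 and -0.90 in the deposited values, near the pan-endothelial markers, while Procr and F2r lie at 0.00.

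In the deposited values the members below the level were mostly equal or higher in array 3, as were all genes below it. Of 19 such members, 10 were higher, 8 equal and 1 lower. Of all 8290 genes below the level, 4940 were higher, 2886 equal and 464 lower, so the members were near the table. Fgg (1.05 log2), F9 (1.04) and Plg (0.78) were the most raised. The median difference of these 19 members was 0.02 log2, against 0.08 over all genes below the level. The direction turned after quantile normalization, with medians of -0.08 log2 over these members and -0.07 over all genes below the level, and F11 (-0.30), F5 (-0.28), Fgb (-0.28) and F3 (-0.22), equal in all arrays as deposited, were then lower in array 3. Fgg (0.69 log2), Plg (0.60) and F9 (0.57) were still higher in it. The largest rise among all members was that of Serpind1, at 1.16 log2 (1.39 after quantile normalization). Most macrophage markers differed between array 3 and the other arrays in the same direction as Serpind1. Of 12 measured macrophage markers, 11 were higher in array 3 than in the mean of the other arrays, and the list summed to raw levels of 1221 in array 1, 2891 in array 2 and 4728 in array 3. Mrc1 was at 6.51, 9.08 and 9.97 log2, Aif1 at 7.24, 8.34 and 10.06, and C1qc at 6.99, 8.61 and 9.61. Highest in array 2 instead were Cd68 (7.30, 8.95 and 8.82), Adgre1 (5.62, 6.74 and 6.42) and C1qa (6.40, 6.88 and 6.42). C1qa was the marker lower in array 3 than in the mean of the others (-0.22 log2). The means of Cd68 (8.36 ± 0.92 log2, SD, n = 3), Fcgr1 (7.17 ± 0.67) and Csf1r (6.95 ± 0.48) lay over the level, and that of Adgre1 (6.26 ± 0.58) under it. By the test Cx3cr1 (7.94 ± 0.44) was above the level and none of the 12 below, and with the pooled spread 6 were above and 1 below. The part of these cells in the value of Serpind1 was not tested. F13a1 and Tbxas1, which macrophages are known to express, lay under the level with 1 deposited value in all arrays, at 5.97 and 6.17 log2. Of all genes below the level 34.8% were tied in this way, so the ties cannot be read as constancy. In such sorted pools, fewer cells of a type and less RNA per cell cannot be told apart.

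Platelet markers were mixed in level. Of 8 measured platelet and megakaryocyte markers, 3 were above the level, namely Pf4 (9.27, 9.34 and 10.63 log2), Treml1 (7.30 in every array) and Clec1b (6.92 in every array, not with the pooled spread), and 3 were below. Itga2b (6.81, 6.81 and 7.27 log2) and Gp5 (6.92 ± 0.28) did not pass, while Itgb3 (5.62 ± 0.03, SD, n = 3), Gp9 and Ppbp were below. With the pooled spread 2 were above (Pf4 and Treml1) and 1 below (Itgb3). The list summed to 1328, 1363 and 2385 in arrays 1, 2 and 3. Of members that mouse platelets are known to carry, Vwf, F13a1 and Tbxas1 held 1 deposited value in all arrays, a tie shared by 25.6% of all genes. F2rl3 differed by -0.03 log2 in array 3, and F2rl2 by 0.47 log2 (0.31 after quantile normalization). The part of platelets in these values was not tested. Markers of the renal stroma and mural cells summed to 1197 to 1426 (5 of 12 above the level, 41.7%, against 41.6% of all genes, and 6 below, among them Pdgfrb and Tbx18). Foxd1 (7.87 ± 0.54 log2) and Col1a1 were above with the pooled spread too (2 above and 4 below with it), Col3a1, Dcn and Acta2 without it only, and Pdgfra did not pass. Markers of nephron and ureteric bud summed to 1157 to 1241 (5 of 12 above, again 41.7%, and 5 below, Eya1 among them). Six2 (7.37 ± 0.12 log2), Cited1 and Wnt4 were above with the pooled spread too (3 above and 3 below with it), and Pax2 and Cdh1 without it only. Wnt4 had 2 probe sets and was called from the one at 8.03 ± 0.00 log2, while the mean of the other, 6.30 ± 0.22, lay under the level. The part of these cells in the members' levels was not tested.

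**Figure D4:**
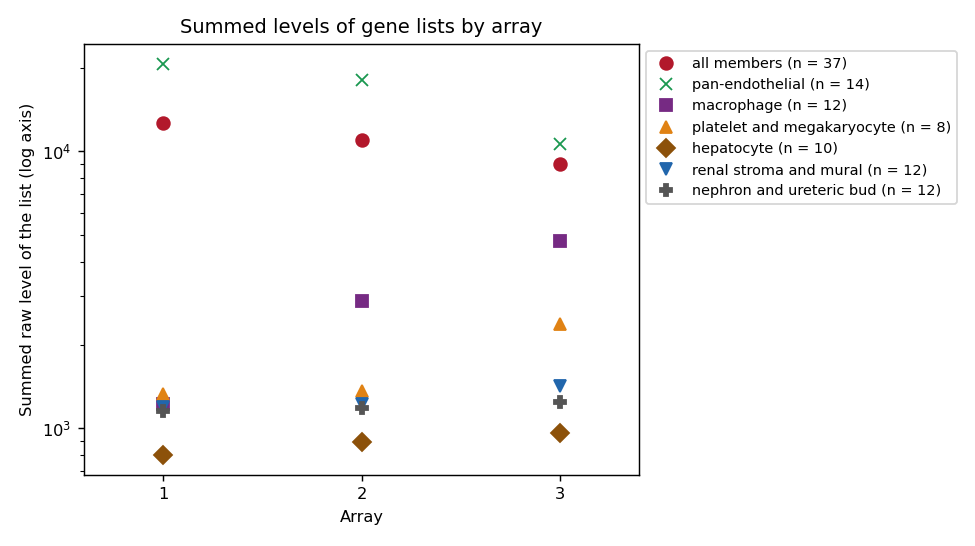
Summed raw level (y axis, log scale) of the members and of each marker list in arrays 1, 2 and 3 (x axis), with the number of measured genes in the legend. The macrophage list runs between 1221 and 4728, while the pan-endothelial list is lowest in array 3 at 10658.

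A wider list of 50 haemostasis genes outside the members gave 46 measured genes, 13 above the level (28.3%) and 25 below (54.3%). Of all genes, 41.6% were above and 41.6% below. With the pooled spread 8 of the list were above and 15 below, and of all genes 36% were above and 32.5% below. Of 7 genes of coagulation factors and the contact system 4 were above and 2 below (3 and 2 with the pooled spread). Those above are genes of export from the endoplasmic reticulum or of vitamin K recycling. Lman1, the cargo receptor that carries factors V and VIII out of the endoplasmic reticulum, was at 9.30 ± 0.42 log2, and its partner Mcfd2 at 6.99 ± 0.00 (SD, n = 3, adjusted p = 0.00696 and 0.000147), Mcfd2 not with the pooled spread. The vitamin K recycling enzymes Vkorc1 (8.09 ± 0.18) and Vkorc1l1 (9.36 ± 0.19 and 9.25 ± 0.22 on 2 probe sets) were above, and Ggcx, the carboxylase of vitamin K-dependent factors, at 6.84 ± 0.51, did not pass (adjusted p = 0.581). The plasma genes F13b and Kng1 were below.

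By the moderated test, receptors and inhibitors of the wider list were mostly called below the level, as were 41.6% of all genes. None of the 3 TAM receptors of Gas6 and protein S was above it: Tyro3 (6.55 ± 0.00 log2) and Mertk (6.22 ± 0.00) were below, though not with the pooled spread, and Axl (6.50 ± 0.19) did not pass (SD, n = 3). Of 6 coagulation inhibitors Serping1 (6.78 ± 0.00), the C1 inhibitor, was above, not with the pooled spread, and 5 were below (2 with it). Of 6 regulators of fibrinolysis Plgrkt (7.77 ± 0.33), a plasminogen receptor, and Serpinb6a (6.99 ± 0.01, not with the pooled spread) were above, and 4 were below (3 with it), Serpinb2, which inhibits urokinase, at 5.17 ± 0.00. Of 7 platelet adhesion and activation genes, Mmrn1 (6.94 ± 0.00) and the ADP receptor P2ry1 (6.91 ± 0.03) were above, neither with the pooled spread, and 4 were below (3 with it), with the platelet ADP receptor P2ry12 at 5.19 ± 0.56. Mmrn2, an endothelial matrix glycoprotein, was at 9.33, 8.74 and 6.99 log2 and did not pass (adjusted p = 0.12), but passed with the pooled spread.

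Nucleotide and prostanoid genes outside the members divided likewise. Nt5e (CD73), which makes adenosine from the AMP left by CD39, was below the level at 5.92 ± 0.00 log2, and Nos3, the endothelial nitric oxide synthase, was at 7.80, 7.70 and 7.08 log2 with an adjusted p = 0.0503, passing with the pooled spread. Of 13 prostanoid genes 4 were above and 7 below (2 and 4 with the pooled spread). Ptges3, a cytosolic protein assigned prostaglandin E synthase activity and known chiefly as a cochaperone, was above on all 3 probe sets (10.99 to 12.28 log2). Slco2a1, the prostaglandin transporter, was at 7.22 ± 0.09, Ptger1 at 7.09 ± 0.14 and Ptgds at 6.81 ± 0.00 (SD, n = 3), each above but not with the pooled spread. The prostacyclin receptor Ptgir was below at 6.24 ± 0.00 (not with the pooled spread), Tbxa2r, the thromboxane receptor, at 6.99 ± 0.16 did not pass, and Hpgd, which inactivates prostaglandins, was at 8.22, 8.22 and 6.91 log2 (adjusted p = 0.107, passing with the pooled spread).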

How the data were processed

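RNA from each pool was amplified in 1 round (NuGEN WT-Ovation Pico) and each of 3 pools was read on its own Affymetrix Mouse Gene ST array. The authors deposited log2 values for 35557 probe sets. Affymetrix Expression Console is given in the processing notes of the submitters (no version), and no source used here gives the summarization algorithm. The study names RMA in GeneSpring and a low-signal filter of 100 for its own analysis. Ties between arrays come with the deposited values, which were used unchanged. The number of arrays limits the precision.

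The platform annotation named the probe sets (21789 with 1 symbol, 1621 with several and not used, 12147 not listed), with symbols updated through RefSeq identifiers (GRCm38.p6, names only, 21698 matched). Each probe set's mean was set against 100 with limma 3.58.1 in R 4.3.3 (intercept-only fit, eBayes, one-sided each way, Benjamini-Hochberg over all probe sets). A gene was above if any probe set was and below if all were. The study's tests between groups could not be run on 1 group. The test was checked on data simulated without ties between arrays, so that check does not cover genes with equal values. Raw levels are powers of 2 of the log2 values, and lists were summed as gene means. Named genes were every member, Tek, any of the wider list, the first 4 measured markers of each list and markers of other cell types above the level. Marker genes given outside that rule (Eng, Esam, Cldn5, Ppbp, Mrc1, Aif1, C1qa and C1qc) were chosen after their values were seen. Members, lists and tests were chosen with earlier results of these data known. Figures used Python 3.11.15 with matplotlib 3.10.9.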

Additional observations from a re-analysis of the deposited data

How the results depend on the processing

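The members above the level (14) stayed within 1.5 times that count in 9 settings, that without array 3 among them. They numbered 24 against a level of 50, 7 against 200, and 9 to 14 with 1 array left out. The members below (19) numbered 5 against 50 and 11 to 19 with 1 array left out. Over all genes, 8295 were above, 14235 against 50 and 3221 against 200. They numbered 5531 without array 1, 5051 without array 2 and 8038 without array 3, and the cause of this difference was not tested. Against a level of 50, members under 100 came to lie over the level by 0.95 log2 (Tfpi2), 0.0238 (F2rl2), 0.81 (F2rl3), 0.0644 (F7), 0.59 (F10), 0.65 (F12), 0.32 (F13a1), 0.0053 (Proc), 0.49 (Serpinc1), 0.025 (Ptgs2) and 0.53 (Tbxas1). Against 200, members over 100 lay under the level, by -0.51 (Vwf), -0.0379 (Pros1), -0.46 (Serpind1), -0.83 (Serpinf2), -0.093 (Plat), -0.15 (Plaur) and -0.67 (Ptgis). At the 95th percentile of 1194 olfactory and vomeronasal receptor genes (6.45 log2, raw 87.4), Tfpi2 (0.15) and F2rl3 (0.0049) lay over the level. These follow from moving the level. With the pooled spread 29 of 37 calls held, 7 were lost and 1 was gained. All 37 held with an intensity trend, with probe sets of 1 symbol tested alone and with 1 mean per gene. No paired analysis was possible because the series holds a single group. No result met the criteria for a closer look, which need groups of 4 or more or a second group.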
